A study of Mus musculus with 29 samples.

Results

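The ADAMTS proteases are secreted metalloproteinases of the extracellular matrix, and 9 of their genes, Adamts1, Adamts2, Adamts4, Adamts5, Adamts8, Adamts9, Adamts10, Adamts12 and Adamts15, were followed in the aortic arch of mice with a DNA repair defect. The genes were given as a list of names, which was matched to the gene identifiers of the count table. The rule that took the 9 members from 56748 genes thus held no measured value. The members and tests were, however, chosen with earlier results of these data known, so the list was not blind to them. All 9 had an entry in the table, and 8 of them passed the filter on low counts and were among the 12353 genes tested. Adamts4 did not pass and is given as levels only.

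RNA was sequenced from the aortic arch of Ercc1Δ/− mice and their wild-type (WT) littermates, F1 hybrids of C57BL6J and FVB of both sexes, with 1 sample per mouse. Ercc1 encodes a subunit of the nuclease used in nucleotide excision and crosslink repair, and Ercc1Δ/− mice carry 1 null allele and 1 hypomorphic allele with a truncated product in every cell, so the vessel, the heart and all other organs share the defect. The 6 groups were WT at 6 weeks fed ad libitum (AL, 5 mice), Ercc1Δ/− at 6 weeks on AL (5 mice), WT at 22 weeks on AL (4 mice), Ercc1Δ/− at 22 weeks on AL (4 mice), WT at 22 weeks on dietary restriction (DR, 5 mice) and Ercc1Δ/− at 22 weeks on DR (5 mice). DR began at 7 weeks of age with 10% less food than AL and was raised in weekly steps to 30%, reached at 9 weeks. The table holds 1 further WT mouse at 22 weeks on AL (sample 003), which the study had removed for its low read count and diverging profile and which was likewise left out here.

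An ADAMTS protease is made as an inactive precursor whose propeptide is removed by proprotein convertases such as furin, and it is then held in the matrix through thrombospondin repeats. Adamts1, Adamts4, Adamts5, Adamts8, Adamts9 and Adamts15 belong to the proteoglycan-cleaving branch, whose best known substrates are versican and aggrecan, the large hyaluronan-binding proteoglycans. Adamts2 removes the amino-terminal propeptide from fibrillar procollagens, Adamts10 binds fibrillin-1 in microfibrils, and Adamts12 cleaves cartilage oligomeric matrix protein. TIMP3 is the main tissue inhibitor of the proteoglycan-cleaving members, and LRP1 is the receptor through which several of them are taken up and degraded. Loss of ADAMTS1 and accumulation or cleavage of versican are both linked to disease of the thoracic aorta.

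Counts on genes ran from 921167 to 9616382 per sample. The Ercc1Δ/− libraries at 22 weeks were the shallower ones, and the totals of the genotypes overlapped on neither diet. They were 1294980 to 3855444 against 3903589 to 9616382 in WT on AL, and 921167 to 2572523 against 2660422 to 6124471 on DR. Values below are normalized counts, that is, counts scaled to a library of 3683502 counts. Ercc1 itself ran from 52.2 to 136 in WT and from 28.2 to 78.7 in Ercc1Δ/− samples, and was lower in Ercc1Δ/− in all 3 genotype comparisons (log2 fold change -1.42 ± 0.18 (SE) at 6 weeks, -0.96 ± 0.20 at 22 weeks on AL and -1.01 ± 0.18 on DR). The 8 smooth muscle markers, led by Acta2 and Myh11, summed to 66134 to 165915 normalized counts and were called lower in Ercc1Δ/− for 4, 7 and 8 of 8 genes in these 3 comparisons. The 8 macrophage markers were called higher for 1, 7 and 5 genes, and 1.72%, 12% and 13% of all genes were called in either direction there. In bulk RNA fewer cells of a type and less RNA per cell cannot be told apart. Libraries that stood apart included 016 and 001, and differences of Adamts1 and Adamts15 to which they contributed most are given with and without them. Ercc1Δ/− sample 016 on DR had the highest macrophage marker sum (4462, against 1372 to 1773 in the rest of its group) and immediate early gene sum (6995, against 2967 to 4502), and WT sample 001 at 6 weeks had a Schwann cell marker sum of 4246 against 173 to 339 in the other 27 samples.

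Levels differed between the members by more than 2 orders of magnitude. Per kilobase of exon, the mean over 28 samples was 305 normalized counts for Adamts1, 145 for Adamts2 and 103 for Adamts10, and these 3 genes made up 82.9% to 93.2% of the summed level per kilobase of the 9 members in each sample. Adamts8 (32.4), Adamts5 (22.2), Adamts15 (16.7) and Adamts9 (6.80) followed, and Adamts12 (1.31) and Adamts4 (1.14) were the lowest. The order was stable within samples down to Adamts9, since each gene exceeded the next in 24 to 28 of 28 samples, whereas Adamts12 exceeded Adamts4 in 12 of 28 and these neighbours did not differ beyond their spread. With the length of the longest transcript in place of all exons, Adamts10 (250) passed Adamts2 (187) and Adamts15 (28.9) passed Adamts5 (22.5).

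**Figure D1:**
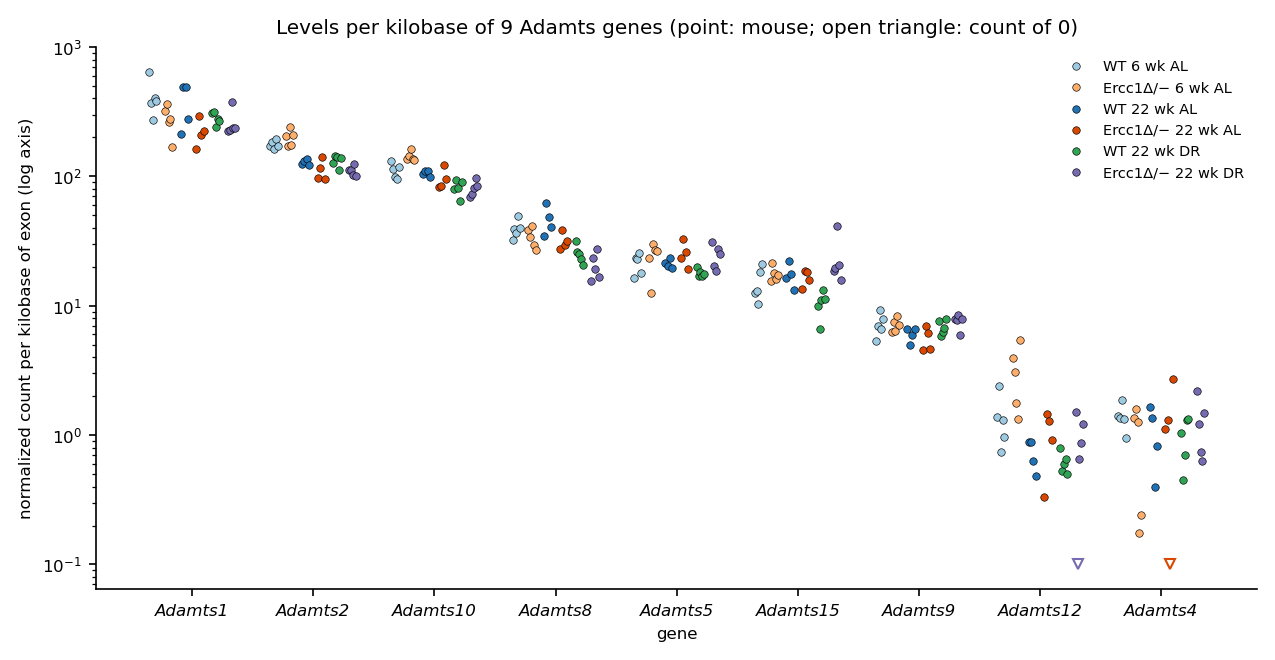
Level of each Adamts gene per kilobase of exon (y axis, normalized count per kilobase, log axis) in each mouse, with the 6 groups in colour and counts of 0 as open triangles at the lower edge. In every sample Adamts1, Adamts2 and Adamts10 lie above the other 6 genes, and Adamts12 and Adamts4 are the lowest, each with 1 sample at 0.

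Of the 8 tested members, Adamts2, Adamts5, Adamts8, Adamts10, Adamts12 and Adamts15 were called in at least 1 comparison, and Adamts1 and Adamts9 in none. Only Adamts8 was called in more than 1 comparison. A call required an adjusted p of at most 0.05 by edgeR's quasi-likelihood test with Benjamini-Hochberg adjustment over 12353 genes and a fold change of at least 1.2, and for interactions the adjusted p alone. For genotype at 6 weeks 0 of 8 members were called (edgeR, 2 at an unadjusted p under 0.05, DESeq2 0), where 1.72% of all genes were. For genotype at 22 weeks on AL 1 member was called lower, Adamts8, beside 12% of all genes (6.09% called lower). For genotype at 22 weeks on DR 2 members were called higher, Adamts15 and Adamts5, beside 13% of all genes (5.92% called higher). Among 8 genes, counts of this size are near the background shares.

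With age, 3 of 8 members were called in Ercc1Δ/− mice on AL, all lower at 22 weeks (Adamts2, Adamts10 and Adamts12). Of all genes, 4.65% were called there and 2.43% were called lower. Adamts12 passed the filter on low counts partly through the 5 Ercc1Δ/− samples of 6 weeks, its highest group. Its call, and its part in the count of 3, is therefore not independent of the filter. In WT mice the age comparison called 0 members with edgeR (2 at an unadjusted p under 0.05) and 1, Adamts2, with DESeq2, where edgeR called 0.219% of all genes. With diet, Adamts8 was called lower on DR in WT mice (1 of 8 members, beside 1.28% of all genes and 0.939% called lower), and 0 members were called in Ercc1Δ/− mice (edgeR, 2 at an unadjusted p under 0.05, DESeq2 0), beside 1.78% of all genes. The genotype by age and genotype by diet interactions called 0 members each by edgeR and by DESeq2 (2 and 1 at an unadjusted p under 0.05 with edgeR), beside 0.785% and 0.105% of all genes. Sex, tested over all 6 groups, called 0 members by edgeR (0 at an unadjusted p under 0.05) and 0 by DESeq2, beside 0.186% of all genes.

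The medians of the 8 tested members ran from -0.36 to 0.18 between pairs of groups, and the lowest were for age in Ercc1Δ/− and diet in WT. The median log2 fold change of the members was 0.18 for genotype at 6 weeks, -0.15 at 22 weeks on AL and 0.06 on DR, where the medians of all genes were 0.01, 0.03 and 0.00. With age it was -0.14 in WT and -0.36 in Ercc1Δ/− (all genes -0.01 and 0.02), and 7 of 8 members were below 0 in Ercc1Δ/−. With diet it was -0.29 in WT and -0.01 in Ercc1Δ/− (all genes 0.01 and -0.01). The AL groups at 22 weeks and the 6-week groups serve in several of these comparisons, so their values are not independent.

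**Figure D2:**
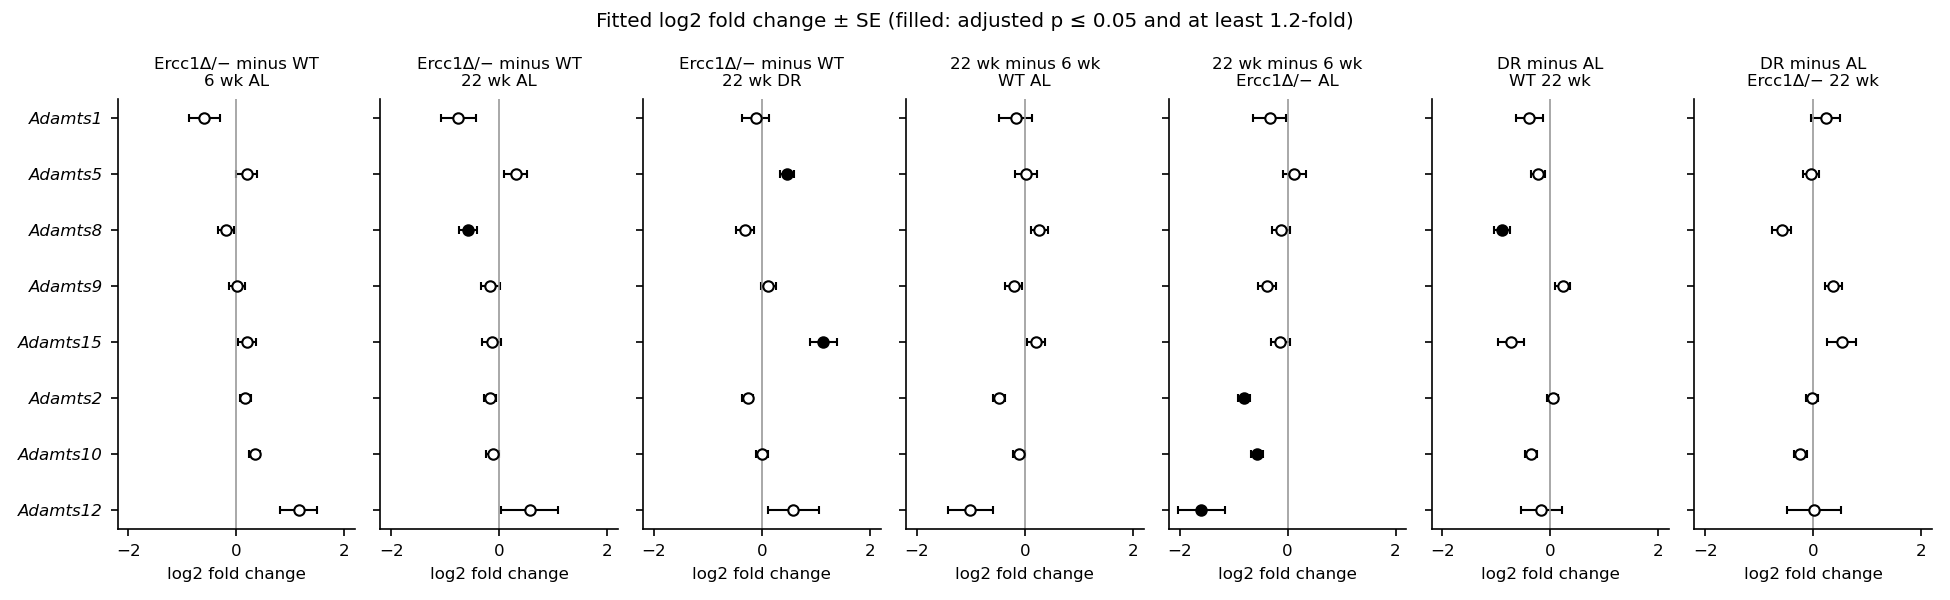
Fitted log2 fold change (x axis) ± SE of the 8 tested members (y axis) in each of the 7 comparisons between pairs of groups (panels), with called genes as filled points. Calls fall on Adamts8 (22 weeks on AL, and diet in WT), Adamts5 and Adamts15 (DR), and Adamts2, Adamts10 and Adamts12 (age in Ercc1Δ/−).

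Adamts2, the procollagen propeptidase, gave the lowest adjusted p of the members, for a lower level at 22 weeks than at 6 weeks. In AL-fed Ercc1Δ/− mice it was 1940, 1613, 2270, 1654 and 1979 normalized counts at 6 weeks and 916, 1096, 1345 and 896 at 22 weeks. Every 22-week sample lay below every 6-week sample. Expression fell 1.75-fold (log2 fold change -0.81 ± 0.11 (SE), adjusted p = 4.42e-05, edgeR), and the call was kept without any single mouse and under every other alternative tried (-0.92 to -0.71). In WT it was 1613, 1748, 1535, 1835 and 1637 at 6 weeks and 1189, 1243, 1290 and 1162 at 22 weeks, again without overlap. This difference of -0.48 ± 0.11 missed the threshold with edgeR (adjusted p = 0.0642) and passed it with DESeq2 (0.0042), without the filter on low counts (0.034), with sample 003 added (0.0367) and with all 6 groups in the fit (0.0367). Adamts2 was the only member without overlap between ages in WT, and Adamts2 and Adamts10 were those in Ercc1Δ/− (3.85% and 6.78% of all tested genes did not overlap). The difference between the genotypes in the age change was -0.34 ± 0.15 and did not pass (adjusted p = 0.408, edgeR).

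Adamts2 differed little between diets. It was 1208, 1359, 1331, 1053 and 1322 in WT on DR (log2 fold change against AL 0.04 ± 0.10, 95% interval -0.16 to 0.25) and 1066, 1059, 964, 1171 and 949 in Ercc1Δ/− on DR (-0.02 ± 0.11, 95% interval -0.24 to 0.19). The DR-fed genotypes overlapped, with 4 of 5 WT samples above all 5 Ercc1Δ/− samples, and their difference of -0.27 ± 0.10 did not pass (adjusted p = 0.0809, edgeR). It passed without the filter on low counts (-0.33, adjusted p = 0.0145) and without WT 021 or Ercc1Δ/− 022 (-0.33 and -0.32).

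The fibrillar procollagens that Adamts2 processes were also lower with age. Among 12 tested genes of other ADAMTS substrates, 5 were called lower with age in Ercc1Δ/− and 2 in WT. Of all genes, 2.43% were called lower in Ercc1Δ/−, and 0.219% were called in either direction in WT. Col3a1, the chain of type III collagen, fell by 2.24 ± 0.18 on the log2 scale in Ercc1Δ/− and by 0.98 ± 0.17 in WT, and these falls differed (interaction -1.26 ± 0.24, adjusted p = 0.0108, edgeR). Col1a2 of type I collagen fell by 1.52 ± 0.13 and 0.65 ± 0.13, and Col1a1 fell by 1.84 ± 0.19 in Ercc1Δ/−. Col5a1 fell by 0.95 ± 0.13 there. On DR in WT, Col3a1 (-0.70 ± 0.15), Col1a1 (-0.70 ± 0.13) and Col1a2 (-0.40 ± 0.10) fell further, while Adamts2 gave the value near 0 above. Adamts14, another procollagen propeptidase, was not called in any comparison. The summed fibroblast markers ran from 22142 to 26501 at 6 weeks and from 17066 to 25685 at 22 weeks. With age in Ercc1Δ/−, 3 of 8 markers were called (Pi16 and Serpinf1 lower, Ly6a higher), beside 4.65% of all genes. The part of the fibroblast markers in the lower Adamts2 was not tested.

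**Figure D3:**
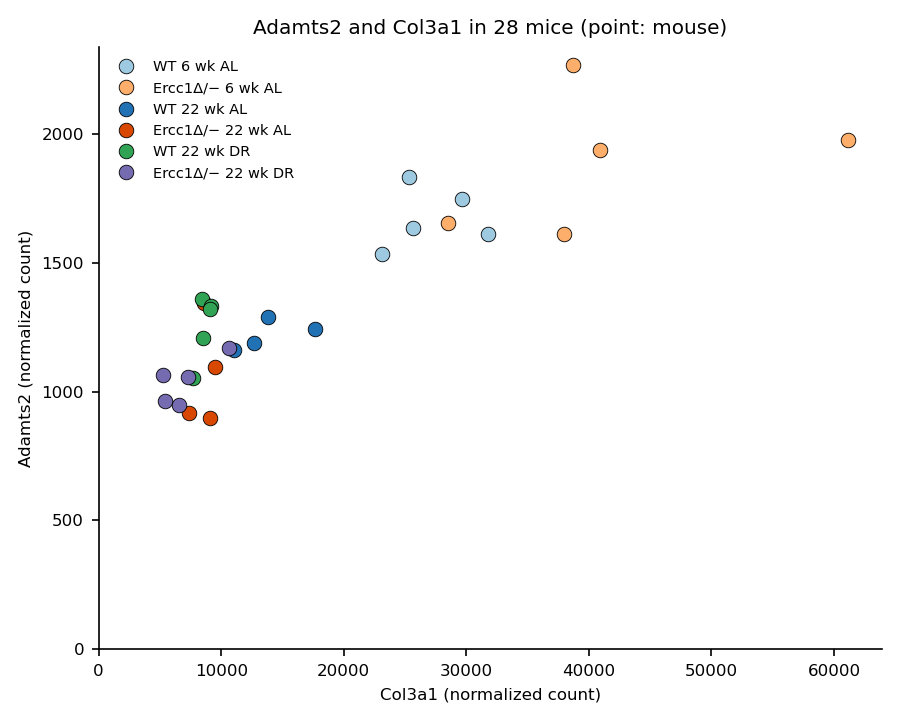
Adamts2 (y axis) against Col3a1 (x axis), both in normalized counts, in 28 mice coloured by group. The 10 mice of 6 weeks lie at the upper right (Adamts2 at least 1535, Col3a1 at least 23154), and the 18 mice of 22 weeks lie at the lower left (Adamts2 at most 1359, Col3a1 at most 17643).

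Adamts10, the fibrillin-binding member, fell with age in Ercc1Δ/−, from 1775, 1902, 2142, 1774 and 1749 at 6 weeks to 1078, 1111, 1602 and 1252 at 22 weeks on AL. The ages did not overlap, although Ercc1Δ/− 013 (1602) came near the 6-week samples. The fall was 1.48-fold (-0.57 ± 0.11, adjusted p = 0.00328, edgeR) and was kept without any single mouse. In WT it was 1738, 1508, 1298, 1247 and 1550 at 6 weeks and 1361, 1432, 1435 and 1308 at 22 weeks, with overlapping ages (-0.10 ± 0.11). The difference between these changes did not pass (-0.46 ± 0.16, adjusted p = 0.224, edgeR). At 6 weeks the Ercc1Δ/− samples all lay above the WT samples, by a margin of 1749 against 1738, as did 2.87% of all tested genes in either direction, and the difference of 0.34 ± 0.10 did not pass (adjusted p = 0.107, edgeR).

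On DR, Adamts10 was 1050, 1224, 1070, 850 and 1183 in WT and 904, 960, 1065, 1286 and 1101 in Ercc1Δ/−. All WT samples on DR lay below all WT samples on AL, and the Ercc1Δ/− samples overlapped. Neither diet difference passed (-0.35 ± 0.11, adjusted p = 0.138, and -0.24 ± 0.12, adjusted p = 0.335, edgeR). Fbn1, which encodes fibrillin-1, fell with age in Ercc1Δ/− (-1.17 ± 0.12), was lower in Ercc1Δ/− at 22 weeks on AL (-0.41 ± 0.13) and fell on DR in WT (-0.46 ± 0.10).

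Adamts12 was low in every group and highest in young Ercc1Δ/− mice. It was 42.9, 33.5, 19.4, 14.6 and 59.5 normalized counts in Ercc1Δ/− at 6 weeks, from 12 to 44 counts, and 3.61, 15.8, 14.0 and 9.95 at 22 weeks, from 4 to 15 counts. The ages overlapped in 1 pair of values (14.6 and 15.8). The 3.02-fold fall (-1.60 ± 0.43, adjusted p = 0.0339, edgeR) no longer passed without Ercc1Δ/− 002, 008, 004, 013 or 026 (adjusted p 0.065 to 0.179) or after thinning all libraries to the lowest total (0.0732). In WT it was 15.1, 26.2, 8.04, 14.3 and 10.6 at 6 weeks and 9.70, 9.67, 6.84 and 5.32 at 22 weeks, with overlap (-1.01 ± 0.41, adjusted p = 0.451, edgeR).

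At 6 weeks Adamts12 was 2.23-fold higher in Ercc1Δ/− than in WT, with overlap, and did not pass (1.16 ± 0.34, adjusted p = 0.0932, edgeR). It passed with all 6 groups in the fit (0.0464) and without Ercc1Δ/− 015 (0.0483) or 023 (0.0464). On DR it ran from 5.47 to 8.69 in WT and from 0 to 16.5 in Ercc1Δ/−, where the sample at 0 allows a level of up to 11.8 (3 counts). Comp, which encodes the cartilage oligomeric matrix protein, was not called in any comparison. These Adamts12 differences rest on few counts, and at this depth a change on DR was not detectable. The filter asked for a count over 10 in over 10 samples. All 5 Ercc1Δ/− samples of 6 weeks met that count (12 to 44), and no Ercc1Δ/− sample on DR did (0 to 7). The place of Adamts12 among the tested genes thus leaned on the group where it was highest.

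The 250 bases before the outermost annotated start of the 3 genes called lower with age in Ercc1Δ/− are shown so that their promoters can be set side by side. They were read from the GRCm39 genome with a GENCODE annotation and are printed 5′ to 3′ on the strand of the gene. In all, 6 motifs were searched on both strands, the TATA box (TATAAA), the GC box (GGGCGG), the AP-1 site (TGANTCA), the cAMP response element (TGACGTCA), the E-box of the clock factors (CACGTG) and the CArG box of serum response factor. Capitals mark their matches.
Adamts2 promoter, chr11:50492537-50492786, plus strand: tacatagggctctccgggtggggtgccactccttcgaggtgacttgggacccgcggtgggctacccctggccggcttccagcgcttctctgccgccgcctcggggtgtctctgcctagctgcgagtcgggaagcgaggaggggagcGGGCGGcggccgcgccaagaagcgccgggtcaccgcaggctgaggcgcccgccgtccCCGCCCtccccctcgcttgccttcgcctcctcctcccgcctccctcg
Adamts10 promoter, chr17:33742737-33742986, plus strand: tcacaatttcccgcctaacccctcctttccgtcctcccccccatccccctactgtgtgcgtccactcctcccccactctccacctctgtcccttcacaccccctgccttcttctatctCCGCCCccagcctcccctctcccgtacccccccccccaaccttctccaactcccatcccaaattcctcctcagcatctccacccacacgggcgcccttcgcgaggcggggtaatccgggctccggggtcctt
Adamts12 promoter, chr15:11064626-11064875, plus strand: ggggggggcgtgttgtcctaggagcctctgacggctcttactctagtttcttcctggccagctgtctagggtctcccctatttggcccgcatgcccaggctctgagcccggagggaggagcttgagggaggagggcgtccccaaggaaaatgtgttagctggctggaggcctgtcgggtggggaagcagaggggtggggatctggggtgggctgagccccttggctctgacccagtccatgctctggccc

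The GC content of these 3 windows was 73.6%, 64.8% and 64.4%, where the median of 21757 promoters was 51.2%. This was not particular to them, since Adamts9 (70%), Adamts1 (64.8%) and Adamts15 (64.4%), not called with age, had similar values. Adamts4 (51.2%), Adamts5 (50.4%) and Adamts8 (43.2%) were lower. The GC box, the element bound by SP1 factors, was found at 104 and 47 bases before the start of Adamts2 and at 132 bases before that of Adamts10, and not in the window of Adamts12. Over all promoters 29.9% held it, as did 4 of the 9 members (Adamts1, Adamts2, Adamts4 and Adamts10). The TATA box was found in Adamts1 on the strand of the gene and in Adamts5 on the opposite strand only. On either strand, 12.5% of all promoters held it. No member held the AP-1 site, the cAMP response element, the E-box or the CArG box, which 6.46%, 1.31%, 5.69% and 1.41% of all promoters held. A match is a run of letters and no evidence of binding.

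Adamts8, a proteoglycan-cleaving member described as antiangiogenic, was lower on DR in WT mice. At 22 weeks it was 164, 294, 227 and 192 in WT on AL and 148, 123, 118, 108 and 97.3 in WT on DR. All DR samples lay below all AL samples. The fall was 1.87-fold (-0.90 ± 0.15, adjusted p = 0.00173, edgeR), was kept without any single mouse and did not pass after thinning to the lowest total (-0.73, adjusted p = 0.0812). In Ercc1Δ/− it was 130, 181, 140 and 149 on AL and 72.9, 110, 91.2, 130 and 78.1 on DR. The diets again did not overlap, although the lowest AL value and the highest DR value were nearly equal, and the difference of -0.59 ± 0.18 did not pass (adjusted p = 0.099, edgeR). After thinning it passed (-0.79, adjusted p = 0.0402). Groups of different diet did not overlap for 5.14% of all genes in WT and 5.02% in Ercc1Δ/−, and the members without overlap were Adamts8 in both and Adamts10 in WT. The genotype by diet interaction of Adamts8 was 0.32 ± 0.24 (adjusted p = 0.758, edgeR).

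Adamts8 was also called lower in Ercc1Δ/− than in WT at 22 weeks on AL, from the values just given, with overlap between 164 in WT and 181 in Ercc1Δ/−. The difference was 1.49-fold (-0.58 ± 0.17, adjusted p = 0.0303, edgeR). The call was lost without WT 018 (-0.35, adjusted p = 0.272) or 020 (0.0623), without Ercc1Δ/− 004 (0.122), 013 (0.0639) or 026 (0.0574), with sample 003 added (-0.48, adjusted p = 0.135) and after thinning (-0.29, adjusted p = 0.47). WT 018 held the highest value of all 28 samples, 294. No member was without overlap in this comparison, where 18.6% of all genes were. At 6 weeks Adamts8 ran from 151 to 231 in WT and from 128 to 194 in Ercc1Δ/−, and neither this difference (-0.19 ± 0.15) nor the age changes passed. The deposited table also counts a noncoding gene, Gm29724, on the strand opposite to Adamts8 with 547 bases of shared exon, and it held 63 counts in all samples together.

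Adamts15, a versican-cleaving member, was higher in Ercc1Δ/− than in WT on DR. It was 104, 69.7, 116, 139 and 118 in WT and 195, 205, 434, 215 and 166 in Ercc1Δ/−. Each Ercc1Δ/− sample lay above each WT sample, as was so for 8.27% of all genes in either direction. The difference was 2.2-fold (1.14 ± 0.25, adjusted p = 0.0055, edgeR). Sample 016, which stood apart in its macrophage markers, held the value of 434, and without it the difference was 0.80 ± 0.15 (adjusted p = 0.00121). The call was kept without any other single mouse and after thinning (1.39, adjusted p = 0.00428). On AL at 22 weeks the genotypes overlapped, with 173, 234, 184 and 139 in WT and 142, 193, 190 and 167 in Ercc1Δ/− (-0.14 ± 0.18, adjusted p = 0.671, edgeR).

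The diet changes of Adamts15 had opposite signs in the genotypes, and neither passed. In WT the level on DR was 1.66-fold lower than on AL (-0.74 ± 0.24, adjusted p = 0.177, edgeR), with overlap in 1 pair of values that both round to 139. In Ercc1Δ/− it was 1.44-fold higher (0.52 ± 0.27, adjusted p = 0.379, and 0.21 without sample 016). The interaction was 1.26 ± 0.36 with an unadjusted p of 0.00327 and did not pass over all genes (adjusted p = 0.284 with edgeR and 0.0534 with DESeq2, and 0.96 with adjusted p = 0.101 by edgeR without sample 016). At 6 weeks Adamts15 ran from 108 to 218 in WT and from 164 to 224 in Ercc1Δ/− (0.20 ± 0.16).

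**Figure D4:**
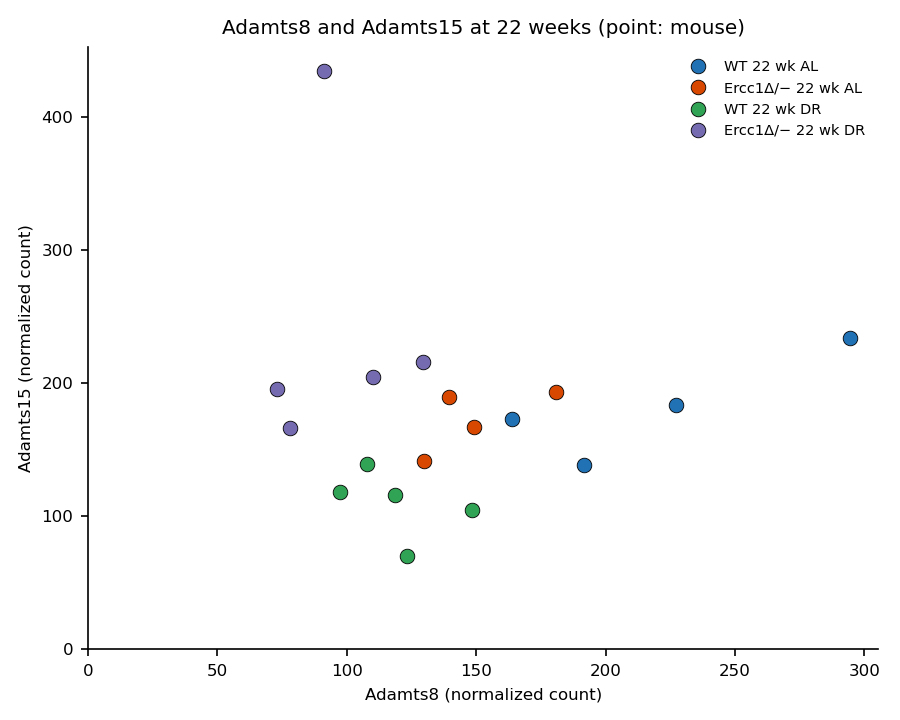
Adamts15 (y axis) against Adamts8 (x axis), both in normalized counts, in the 18 mice of 22 weeks coloured by group. The DR-fed mice lie towards the left (Adamts8 at most 148), and there the 5 Ercc1Δ/− samples (Adamts15 at least 166) lie above the 5 WT samples (at most 139), and sample 016 lies alone at 434.

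Adamts8 and Adamts15 are neighbours on chromosome 9. Adamts15 (30810451 to 30833863, minus strand) and Adamts8 (30853809 to 30875134, plus strand) point away from each other, their starts are 19.9 kb apart, and no protein-coding gene lies between them. Adamts1 and Adamts5 on chromosome 16 are a similar pair, both on the minus strand with 53.1 kb between them. The 250 bases before the start of Adamts8 are shown because this member was called in both a diet and a genotype comparison at 22 weeks. The window held none of the 6 motifs, so that no letters are in capitals.
Adamts8 promoter, chr9:30853559-30853808, plus strand: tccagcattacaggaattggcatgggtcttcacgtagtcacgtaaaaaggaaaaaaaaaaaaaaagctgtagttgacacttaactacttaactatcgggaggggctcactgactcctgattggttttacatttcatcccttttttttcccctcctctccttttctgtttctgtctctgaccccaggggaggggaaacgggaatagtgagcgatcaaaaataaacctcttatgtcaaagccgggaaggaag
Its GC content was 43.2%, the lowest of the 9 members.

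Adamts5, the main aggrecanase of mouse cartilage, was higher in Ercc1Δ/− than in WT on DR, at 341, 220, 202, 297 and 276 against 219, 184, 198, 185 and 193. The groups overlapped, with the highest WT value above the lowest Ercc1Δ/− value. The 1.37-fold difference (0.46 ± 0.13, adjusted p = 0.0214, edgeR) did not pass without Ercc1Δ/− 006 (0.0899), 022 (0.0596) or 029 (0.0505), with all 6 groups in the fit (0.0963) or after thinning (0.211). On AL at 22 weeks it was 233, 223, 254 and 212 in WT and 253, 355, 285 and 209 in Ercc1Δ/− (0.31 ± 0.22, adjusted p = 0.407, edgeR), and at 6 weeks it ran from 178 to 277 and from 137 to 326. Endothelial markers were called higher in Ercc1Δ/− on DR for 4 of 8 genes and fibroblast markers for 3 of 8 (2 lower), and the 8 endothelial markers summed to 3212 to 5386 against 1633 to 3430 in WT. Upk1b of the 5 tested mesothelial markers and Tnnt2 of the 6 tested cardiac markers were also called higher there. Of all genes, 13% were called on DR, and 5.92% were called higher. The part of these cells in the higher Adamts5 and Adamts15 was not tested.

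Adamts1, the most abundant member, gave no call but varied widely within groups. At 22 weeks on AL it was 1173, 2706, 2698 and 1522 in WT and 884, 1608, 1144 and 1232 in Ercc1Δ/−. The groups overlapped, and 2 WT samples lay far above the other 6 samples. The difference of -0.75 ± 0.33 did not pass (adjusted p = 0.161 with edgeR and 0.109 with DESeq2). At 6 weeks it was 3530, 2004, 1495, 2192 and 2108 in WT and 1756, 1991, 1437, 1514 and 926 in Ercc1Δ/−, and the difference of -0.59 ± 0.29 (adjusted p = 0.427, edgeR) was -0.35 without WT 001, the library with the high Schwann cell markers. The coefficient of variation was 33.4% and 39.3% in these WT groups and 11.2% in WT on DR.

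On DR the genotypes were near each other, at 1696, 1734, 1309, 1530 and 1468 in WT and 1233, 1255, 2058, 1287 and 1292 in Ercc1Δ/− (-0.12 ± 0.24, 95% interval -0.60 to 0.36, and -0.30 without sample 016). Sample 016 again held the highest value, and the remaining Ercc1Δ/− samples lay below all 5 WT samples. The 15 immediate early genes, which respond within minutes to handling and stress, also differed between samples on AL. Their sum ran from 5420 to 9676 in WT and from 3156 to 6643 in Ercc1Δ/− at 6 weeks, and WT 018 and 020, the samples high in Adamts1 at 22 weeks, held 5618 and 8189 against 3083 and 3804 in the other 2 WT samples. In WT on DR the order differed, since sample 017, the lowest in Adamts1 (1309), held the highest sum (4949). Of the 14 tested genes 1 was called in a genotype comparison, Fosb (lower in Ercc1Δ/− at 6 weeks, -2.2 ± 0.40), beside 1.72% of all genes. Their part in the Adamts1 values was not tested.

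Adamts9 and Adamts4 completed the proteoglycan-cleaving branch and gave no call. Adamts9 ran from 68.5 to 141 over the 28 samples, and its largest differences were in Ercc1Δ/−. With age it differed by -0.38 ± 0.17 (adjusted p = 0.235, edgeR), and the diets gave the following values (68.5, 106, 92.1 and 69.7 on AL, 120, 118, 127, 90.0 and 120 on DR). Of the DR samples, 4 lay above all AL samples, and the difference of 0.38 ± 0.16 did not pass (adjusted p = 0.258, edgeR). The noncoding genes on the opposite strand, A730049H05Rik and Gm15737, share 1389 and 424 bases of exon with Adamts9 and held 161 counts each. Adamts4 ran from 0 to 17.4 with 0 to 19 counts per sample, so that a sample at 0 (Ercc1Δ/− 013) allows a level of up to 8.37. Without the filter on low counts its log2 fold changes lay between -0.34 and 0.33 in the comparisons between pairs of groups, with SE of 0.39 to 0.56, and no difference was detectable at this depth.

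**Figure D5:**
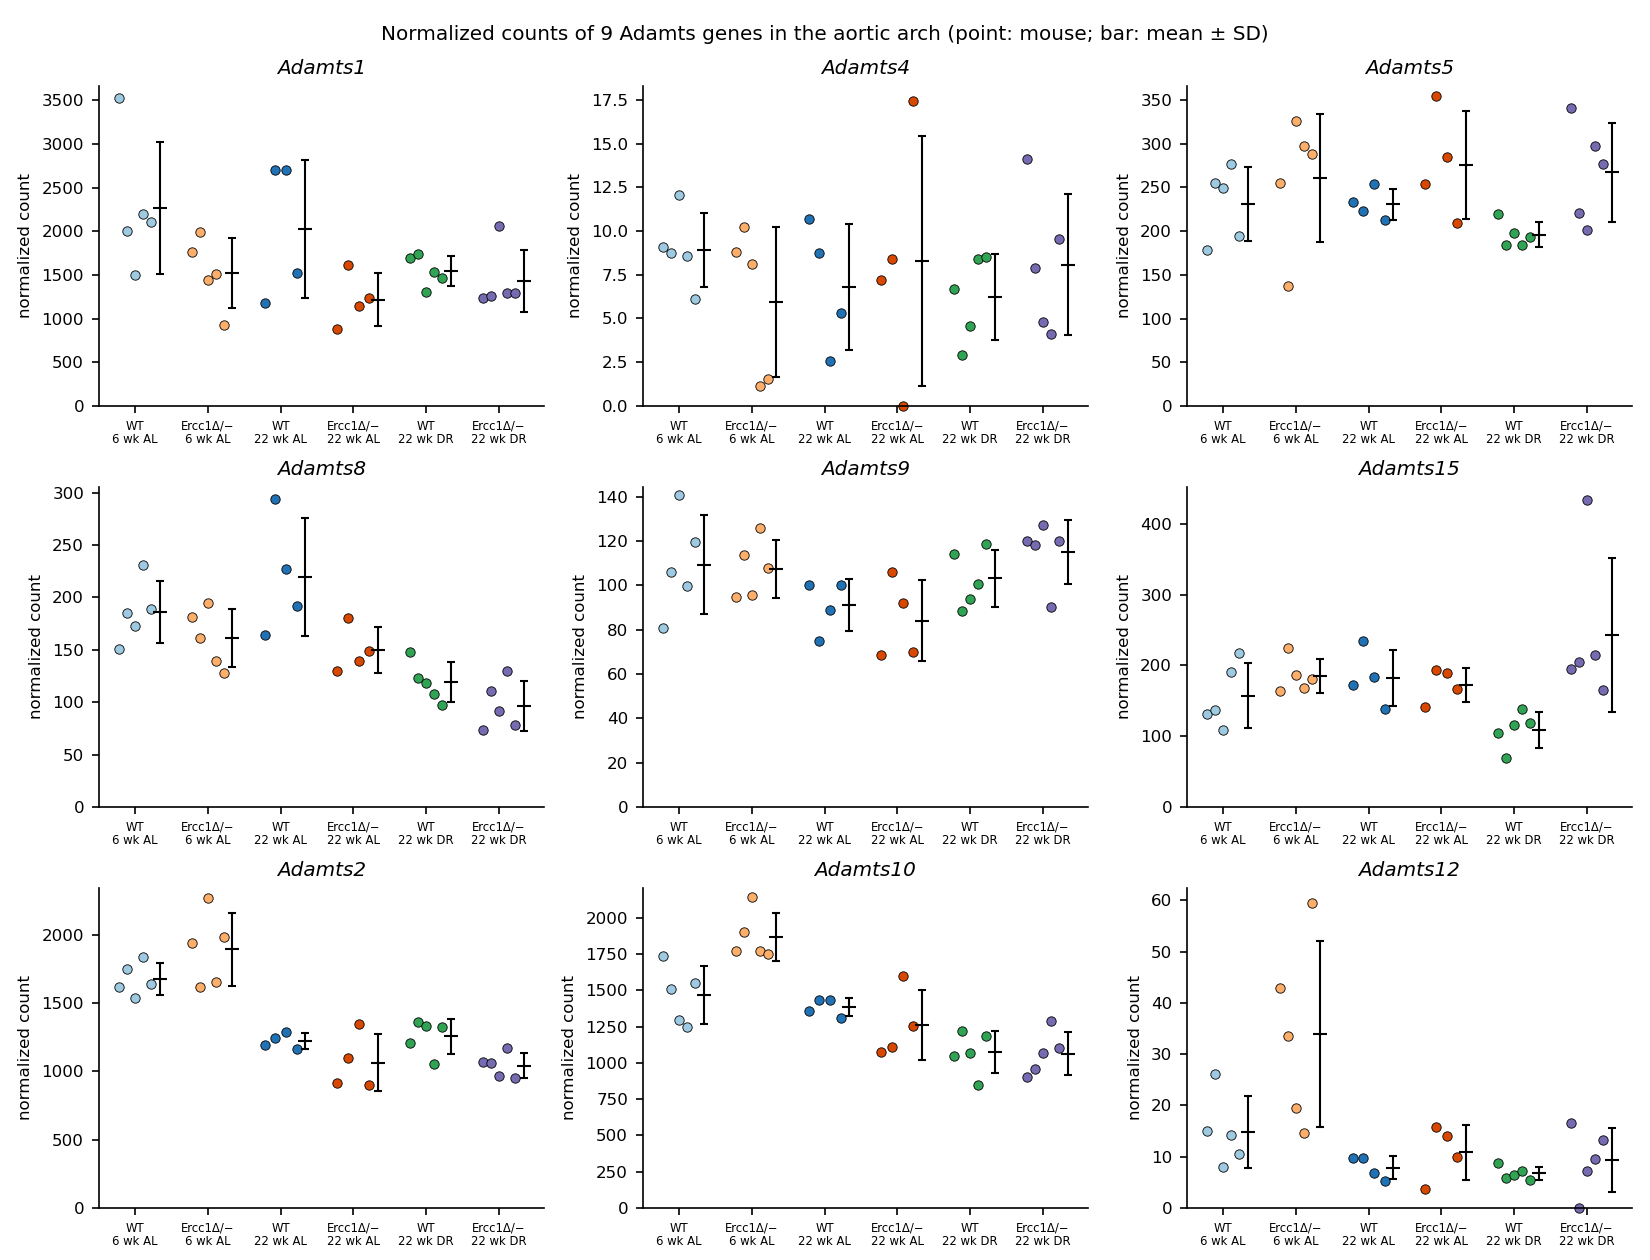
Normalized counts (y axis) of the 9 members in each mouse by group (x axis), with the mean ± SD as a bar beside the points. Adamts2 is lower in all 22-week groups than in both 6-week groups, Adamts8 is lowest in the DR groups, Adamts15 is higher in Ercc1Δ/− than in WT on DR, and Adamts1 varies most in the WT groups on AL.

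The substrates and partners of the branch were measured in the same samples. Versican (Vcan) was close in all groups, with means from 810 ± 42.4 (SD, n = 5) in WT at 6 weeks to 973 ± 197 (n = 5) in Ercc1Δ/− at 6 weeks, and was not called in any comparison (log2 fold changes from -0.16 to 0.25 between pairs of groups). Aggrecan (Acan) was lower in Ercc1Δ/− at 6 weeks (-1.28 ± 0.27, adjusted p = 0.0264, edgeR) and on DR (-1.57 ± 0.29, adjusted p = 0.00186, edgeR). On DR it was 284, 193, 172, 145 and 306 in WT and 63.5, 43.3, 137, 53.2 and 76.2 in Ercc1Δ/−, with no overlap. Acan was the only call among the 6 tested genes of hyaluronan-binding substrates and partners, beside 1.72% of all genes at 6 weeks and 13% on DR. Of the other substrates, Fmod (fibromodulin) was lower in Ercc1Δ/− at 22 weeks on AL (-2.10 ± 0.34) and on DR (-1.62 ± 0.29). Bgn (biglycan) was lower on DR (-0.40 ± 0.08), and Thbs1 (thrombospondin-1) was higher at 22 weeks on AL (1.45 ± 0.38). Col1a1 (-0.65 ± 0.19), Col1a2 (-0.66 ± 0.14) and Col3a1 (-0.65 ± 0.18) were lower in Ercc1Δ/− at 22 weeks on AL. On DR, Col1a1 (-0.46 ± 0.12) and Col1a2 (-0.46 ± 0.09) were lower. In all, 1 was higher and 6 were lower of 12 tested genes on AL, beside 12% of all genes called (6.09% called lower). On DR 4 were lower, beside 13% of all genes called in either direction.

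Among the inhibitors, Timp3 was abundant, with group means from 5323 ± 362 (SD, n = 5) to 7332 ± 535 (n = 5). It was lower in Ercc1Δ/− at 6 weeks, at 5163, 5532, 5725, 5406 and 4787 against 6663, 6623, 6979, 8477 and 6322, with no overlap (-0.39 ± 0.09, adjusted p = 0.0266, edgeR), and on DR (-0.28 ± 0.07, adjusted p = 0.00786, edgeR). Timp1, an inhibitor that acts chiefly on matrix metalloproteinases, was 162, 113, 181 and 221 in Ercc1Δ/− at 22 weeks on AL against 40.7, 29.9, 46.1 and 38.0 in WT, and was higher there (2.11 ± 0.32), and it fell on DR in Ercc1Δ/− (-1.41 ± 0.21), with an interaction of genotype and diet (-1.61 ± 0.30, adjusted p = 0.0357, edgeR). Timp4 was higher in Ercc1Δ/− on both diets (1.70 ± 0.18 and 1.11 ± 0.24). Over the 7 tested genes of inhibitors and clearance, 1 was lower at 6 weeks, 2 were higher at 22 weeks on AL, and 1 was higher and 2 were lower on DR (Timp3 and Reck). In these comparisons 1.72%, 12% and 13% of all genes were called in either direction. The clearance receptor Lrp1 was not called in any comparison (-0.21 to 0.10).

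Of 10 tested genes of maturation, the convertase Furin was not called (0.03 to 0.14). Pcsk5, a convertase of the same family, was lower in Ercc1Δ/− at 22 weeks on AL (-1.11 ± 0.14) and on DR (-0.67 ± 0.13), fell with age in Ercc1Δ/− (-0.78 ± 0.14) and fell on DR in WT (-0.68 ± 0.12). Mmp17, which processes ADAMTS4, was lower in Ercc1Δ/− on both diets (-0.93 ± 0.10 and -0.63 ± 0.11) and fell with age in Ercc1Δ/− (-0.66 ± 0.10). Mmp14 (0.42 ± 0.12) and Pcsk7 (0.34 ± 0.11) were higher in Ercc1Δ/− on DR. The list thus had 2 higher and 2 lower genes there, beside 13% of all genes called.

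The remaining ADAMTS proteases were few in this tissue. Of 10 other family members 3 were tested (Adamts6, Adamts7 and Adamts14), and none was called in any comparison. The lowest adjusted p among them was 0.0724 (Adamts14 on DR in WT, 0.81 ± 0.22, edgeR). The ADAMTS-like proteins, which have the thrombospondin repeats but no protease domain, held calls for Thsd4 and Adamtsl1. Thsd4 (ADAMTSL6), which promotes fibrillin-1 assembly, was lower in Ercc1Δ/− at 6 weeks (-0.62 ± 0.15), at 22 weeks on AL (-1.38 ± 0.18) and on DR (-0.89 ± 0.10). At 22 weeks on AL it was 1960, 2299, 2342 and 2300 in WT and 726, 714, 848 and 1145 in Ercc1Δ/−, with no overlap. Adamtsl1 was lower at 22 weeks on AL (-0.71 ± 0.21) and on DR (-0.54 ± 0.17). Of 6 tested ADAMTS-like genes, 1, 2 and 2 were thus lower in the 3 genotype comparisons, where 1.72%, 12% and 13% of all genes were called. The smooth muscle markers were called lower in the same comparisons, and their part in the lower Thsd4 was not tested.

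The genes most like each member were found by Pearson's r of log2 normalized counts over 28 samples after removal of group and sex, among 12345 other tested genes. They are given as a description, since all genes were measured in the same libraries, whose depth differed widely. Adamts12 held only 0 to 44 counts per sample. Adamts10 had the highest value (Ehmt2, 0.88), followed by Adamts1 with the clock gene Per1 (0.84) and Adamts5 with Abca8a (0.81). Adamts2 was most like Fbln1 (0.81), Ccdc80 (0.79) and Eef1d (0.78), of which the first 2 encode matrix proteins of fibroblasts. Adamts5 was also like Opcml (0.79) and Dpt (0.77). Adamts12 was most like Aspscr1 (0.80), Adamts8 like Arl6ip5 (0.80) and Adamts15 like Synrg (0.79). Adamts9 had the lowest maximum, with Gsta3 (0.66). No member was among the named neighbours of another, since members were left out of the search.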

How the data were processed

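RNA of 29 aortic arches was sequenced by the authors, and the deposited file is a table of raw counts per gene (56748 genes). Per the labels and the study's methods, reads were prepared with bcl2fastq 2.20 and UMI-tools 1.1.2, trimmed with fastp, aligned to GRCm39 with STAR 2.7.10a and counted with HTSeq 2.0.2 on Ensembl release 107. The strand setting of the counting is not given in the sources used here, so reads of overlapping antisense genes may not be told apart. The 5 summary lines of the table, of which reads on no gene held 7.27% to 10.1% of all counts, stayed out of library sizes and tests.

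Groups came from the sample titles. The sample 003 was left out, as in the study. The filter, a count over 10 in over 10 of the 28 samples, left 12353 genes, which were tested with edgeR 4.0.16 in R 4.3.3 (TMM scaling with factors of 0.935 to 1.07, quasi-likelihood F test, sex as covariate, Benjamini-Hochberg adjustment over all tested genes). The AL groups (18 samples) and the 22-week groups (18 samples) were fitted separately, and all 28 samples were fitted for sex. A gene was called at an adjusted p of at most 0.05 and a fold change of at least 1.2, interactions at the adjusted p alone. The SE was derived from the F statistic, and the 95% intervals used a normal multiplier of it, so they are narrower than the F test gives. Normalized counts are counts scaled to 3683502 per library, and levels between genes were compared per kilobase of exon. Each sample is 1 mouse. Totals of 921167 to 9616382 counts per sample set the precision, and floors of 3 counts cover counting error only.

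DESeq2 1.42.0, other scalings, filters, fits and samples were tried as alternatives. The fits were checked on simulated data, with 200 of 12353 genes changed 3-fold. The members, gene lists and tests were chosen with earlier results of these data known. All 9 members were named in the text, together with list genes that were called or are the main substrate, inhibitor or convertase. Gene symbols, lengths and promoters came from the GRCm39 genome with GENCODE release M39, and 56017 of the 56748 identifiers had a symbol there. The promoter window of 1 further gene and 1 further overlapping gene are not reported here.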

Additional observations from a re-analysis of the deposited data

Results flagged for a closer look

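Single samples were compared with the rest of their group for each of the 9 members in 6 groups, 54 groups of values in all, with Dixon's gap test, which chance passes in about 1 of 20 groups. The test marked 3 samples, all in the Ercc1Δ/− group on DR. Sample 016 had 2058 normalized counts of Adamts1 (858 counts), far above the next value of 1292, and 434 of Adamts15 (181 counts), far above the next value of 215. It was also the sample with the highest macrophage marker sum of the 28 samples, 4462, and the part of this in the values was not tested. Sample 022 had 90.0 of Adamts9 (66 counts), below the next value of 118. Without 016 the genotype difference on DR was -0.30 instead of -0.12 for Adamts1 and 0.80 instead of 1.14 for Adamts15. Without 022 that of Adamts9 was 0.20 instead of 0.12, and its diet difference in Ercc1Δ/− was 0.47 instead of 0.38, with an adjusted p of 0.173 by edgeR.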

How the results depend on the processing

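Each count of members called was recomputed with DESeq2, without the filter on low counts, with other size factors, without sex as a term, with sample 003 added, with all 6 groups in 1 fit, all libraries thinned to the lowest total, and without each mouse in turn. Of these counts 176 were within 1.5 times the reported one and 20 were not. A count of 0 that stayed at 0 is among the 176. The reported count was 0 for genotype at 6 weeks, age in WT, diet in Ercc1Δ/−, both interactions and sex. The fold change of each called member kept its sign under every alternative. Differences near 0 that were not called changed sign without single mice in some cases, such as Adamts1 with age in WT (-0.36 to 0.08). At 6 weeks the count was 1 with all 6 groups in the fit (0 to 1 without single mice). For genotype at 22 weeks on AL it was 0 with sample 003 added and 0 after thinning (0 to 1). For genotype on DR it was 1 with all 6 groups and 1 after thinning (1 to 3). For age in WT it was 1 with DESeq2, without the filter, with sample 003 added and with all 6 groups (0 to 0), and for age in Ercc1Δ/− it was 2 to 3 without single mice. For diet it was 0 after thinning in WT and 1 after thinning in Ercc1Δ/−. The cause was not tested. Adamts2 and Adamts10 (age in Ercc1Δ/−) and Adamts15 (DR) were called under all alternatives.

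Over all genes and with all mice, the counts of calls ranged from 129 (thinned) to 378 (DESeq2) at 6 weeks, 790 to 1685 (thinned, DESeq2) at 22 weeks on AL, 1015 to 1755 (thinned, DESeq2) on DR, 18 (no sex term) to 106 (DESeq2) for age in WT, 355 to 728 (thinned, DESeq2) for age in Ercc1Δ/−, 41 (thinned) to 272 (no filter) for diet in WT, and 104 (sample 003 added) to 348 (DESeq2) for diet in Ercc1Δ/−. The interactions ranged from 68 (sample 003 added) to 197 (DESeq2) for age and from 2 (no sex term) to 43 (DESeq2) for diet, and sex from 23 to 52 (DESeq2). Without single mice the ranges were 95 to 226, 927 to 1428, 1184 to 1607, 8 to 31, 320 to 755, 38 to 205 and 93 to 270 in the same order, 49 to 138 and 2 to 11 for the interactions, and 18 to 47 for sex. No paired analysis was made. Each mouse gave 1 sample, and the labels do not give the litters of these littermates, so litter was not in the model. Depth limited Adamts4 and Adamts12, with at most 19 and 44 counts per sample.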
